A study of Bos taurus with 48 samples.

Results

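FOSB (ENSBTAG00000008182 in the deposited table) is described here in blood leukocytes of calves that were weaned or left with their dams. It is 1 of the 25669 genes counted, and it was chosen by its levels and its changes from d 0 in these same libraries, so all of its values are a description and carry no test. The samples came from 12 spring-born, single-suckled, intact male Simmental calves (breed labelled Continental), immunised before the trial and kept at pasture with their dams until d 0. On d 0 all of them were housed. The 6 control calves were housed together with their dams and stayed unweaned, and the 6 weaned calves were separated abruptly from theirs and housed. Each calf gave 1 blood sample on each of d 0, 1, 2 and 7, the first before housing, so that d 0 served as the baseline of its own calf and the series comprised 48 libraries in 8 groups of 6. Both treatments therefore share the move from pasture to housing, and no group stayed at pasture. The RNA was that of total leukocytes left after lysis of the red cells, a mixture of all white cell types, in which fewer cells of a type and less RNA per cell cannot be told apart.

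FOSB encodes a transcription factor of the Fos family. Fos proteins pair with Jun proteins to form the dimer AP-1, which binds DNA through a basic leucine zipper and drives genes of activation, division and inflammation in leukocytes. FOSB and its relative FOS are immediate early genes: they are switched on within minutes of a stimulus such as a growth factor, a cytokine or a stress signal, without new protein synthesis, and their transcripts are short-lived. FOSB also yields a shorter, more stable form by splicing, and counts per gene do not separate the forms. In the RefSeq annotation of the assembly ARS-UCD2.0, FOSB lies between ERCC1 and RTN2 and no annotated gene overlaps it. The build used for counting was Btau4.0, so no position is given, and the sources used here do not say if reads were assigned by strand.

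The 48 libraries held 1662995 to 4256011 counts, with a median of 3600161. FOSB received 54 to 281 counts per library and 6396 in all, well above a detection limit set at 3 counts, which corresponds to 0.686 to 2.08 CPM (counts relative to the library total). This limit covers counting error only, and calves differed by more. The limit and all levels below are CPM relative to the library total scaled by its trimmed mean of M-values (TMM) factor. The mean level of FOSB over the 48 libraries was 40.3 CPM, above 67.8% of the 18206 genes with a count.

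The calf labels were checked with the 60 genes whose levels differed most between calves relative to their variation within a calf. These genes were chosen with the same labels and libraries, which favours resemblance to the own calf. Resemblance of a library to its own calf therefore does not establish its label. By these genes 44 libraries resembled the other libraries of their own calf most, with mean correlations of at least 0.388, whereas 4 libraries resembled another calf more. For the library labelled control calf 1755 on d 2, the mean correlation was -0.39 with its own calf and 0.40 with calf 1769. For the library labelled weaned calf 1758 on d 0 it was 0.03 with its own calf and 0.33 with calf 1769. The d 7 libraries of the weaned calves 1758 and 1770 resembled each other's calf: that labelled 1758 had 0.35 with its own calf and 0.68 with 1770, and that labelled 1770 had 0.25 and 0.50 with 1758. The same 4 libraries stood out with 150 genes, and with 30 genes the library of control calf 1763 on d 0 joined them. Because of these 4 libraries, the changes of FOSB and FOS from d 0 that rest on them are also given without them.

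Before housing, FOSB was at a like level in both treatments. On d 0 the control calves had 17.8 CPM at the lowest, 24.5 at the median and 29.0 at the highest, and the weaned calves 17.9, 25.7 and 35.9. The means were 24 ± 4.45 and 26.1 ± 5.87 CPM (SD, n = 6 each), and the ranges overlapped over most of their length. After housing, the means of the weaned calves were highest on d 1 and 2, and that of the control calves on d 7.

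On d 1 the weaned calves ranged from 29.6 to 65.5 CPM with a median of 47.0, and their mean was 48.1 ± 12 (SD, n = 6). The lowest was calf 1809 and the highest calf 1773, and 5 of the 6 lay above every weaned library of d 0. On d 2 the range was 39.5 to 77.7 CPM, the median 43.9 and the mean 48.9 ± 14.4 (SD, n = 6). The highest was again calf 1773, while the other 5 calves lay within 39.5 to 48.2 CPM. All 6 exceeded all 6 weaned libraries of d 0. In this comparison 0% of all genes were called, which is a different measure from separate ranges. The share of genes with separate ranges was not computed. On d 7 the weaned calves spanned 19.0 to 52.2 CPM, with a median of 38.7 and a mean of 37.4 ± 11.1 (SD, n = 6). The range overlapped that of d 0 again. Its lowest value belonged to the library labelled calf 1758, and without the 2 doubtful d 7 libraries the mean was 41.5 ± 8.33 CPM (SD, n = 4).

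In control calves the range on d 1 was 18.9 to 49.2 CPM, with a median of 27.8 and a mean of 29.7 ± 10.8 (SD, n = 6). On d 2 it was 16.6 to 54.7 CPM, with a median of 27.2 and a mean of 30.1 ± 15.2 (SD, n = 6). By d 2, 3 calves lay above and 2 below every control library of d 0. Of the 2 below, calf 1755 had 17.4 CPM in a doubtful library, against a lowest value of 17.8 CPM on d 0. The highest value came from calf 1759, whose library had the lowest total of all, 1662995 counts. On d 7 the 6 control calves had 36.4, 46.5, 69.9, 72.7, 74.9 and 168.5 CPM, with a mean of 78.2 ± 46.9 (SD, n = 6). Every one of them exceeded the highest control library of d 0. In this comparison 3.73% of all genes were called, higher or lower, by the criteria given with the other genes. Those criteria do not ask for separate ranges, and the share of genes with separate ranges was not computed. The value of 168.5 CPM came from calf 1759, whose library had 281 FOSB counts and a low total of 1992050, and it lay far above the other 5. Calf 1789 was the lowest.

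**Figure D1:**
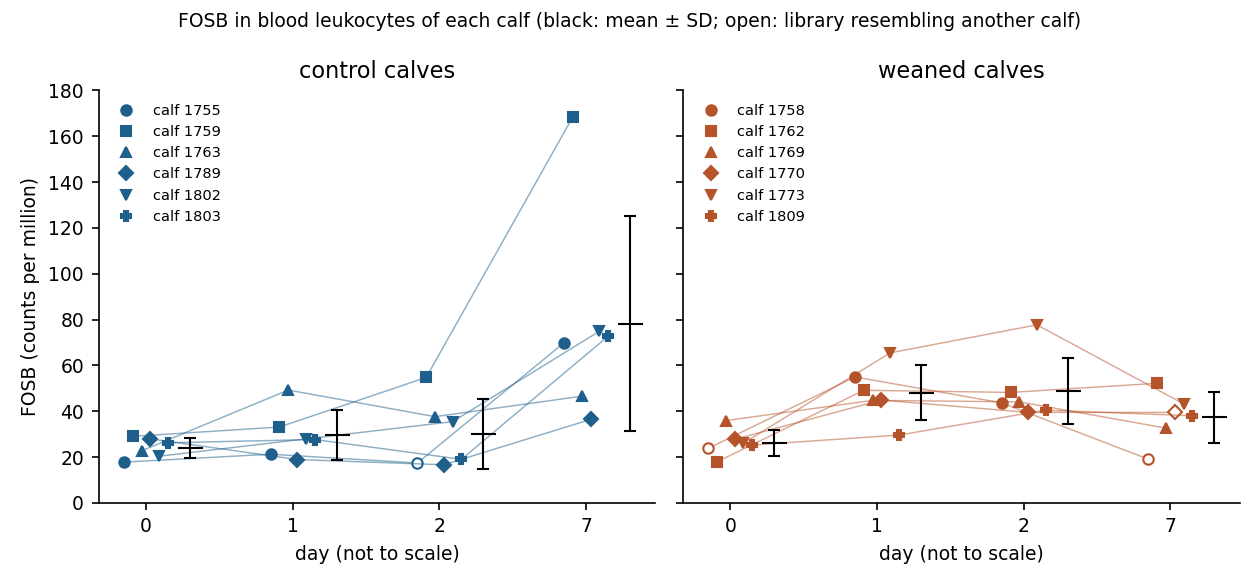
FOSB level (CPM, vertical axis from 0) on each day (horizontal axis, not to scale) in 6 control calves (left) and 6 weaned calves (right). Each symbol is 1 calf joined by lines over days, open symbols are the 4 libraries that resembled another calf more than their own, and black marks are the mean ± SD of 6. The weaned calves are highest on d 1 and 2, and the control calves on d 7, when all 6 lie between 36.4 and 168.5 CPM.

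Ordered by mean level, the groups ran from control d 0, weaned d 0, control d 1, control d 2 and weaned d 7 to weaned d 1, weaned d 2 and control d 7. The range of each group overlapped with that of the next in this order. The difference between means was 2.11 CPM for the lowest pair. For the highest pair, weaned d 2 and control d 7, it was 29.2 CPM, against SDs of 14.4 and 46.9 CPM. In that pair the lowest control calf lay at 36.4 CPM, under all 6 weaned calves.

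With each calf as its own baseline, FOSB was higher than on d 0 in all 6 weaned calves on d 1. The log2 changes of (CPM + 1) were 0.22 in calf 1809, 0.31 in 1769, 0.67 in 1770, 1.18 in 1758, 1.30 in 1773 and 1.41 in 1762, and their mean was 0.85 ± 0.52 (SD, n = 6). On d 2 all 6 were again higher, by 0.29 to 1.54, with a mean of 0.87 ± 0.50 (SD, n = 6). The calves with the smallest and the largest changes were 1769 and 1773. On d 7 the changes ran from -0.31 to 1.49 with a mean of 0.47 ± 0.64 (SD, n = 6), and 4 of 6 calves were higher. Calf 1762 alone had kept a change above 1, and calves 1758 and 1769 were below their own baseline.

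The doubtful libraries changed the d 7 value more than the others. Without them the mean change of the weaned calves was 0.78 ± 0.55 on d 1, 0.87 ± 0.55 on d 2 (SD, n = 5 each) and 0.66 ± 0.67 on d 7 (SD, n = 4). Exchanging the d 7 libraries of calves 1758 and 1770 cannot change the d 7 mean of 0.47, since both are weaned calves. The SD was then 0.71.

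In control calves the change on d 1 was positive in 5 of 6 calves and averaged 0.25 ± 0.53 (SD, n = 6), from -0.54 in calf 1789 to 1.08 in calf 1763. On d 2 it was positive in 3 of 6 and averaged 0.20 ± 0.69 (SD, n = 6), and calf 1789 again had the lowest value at -0.71. On d 7 it was positive in 6 of 6 and averaged 1.51 ± 0.75 (SD, n = 6). The single changes on d 7 were 0.37 in calf 1789, 1.00 in 1763, 1.44 in 1803, 1.83 in 1802, 1.92 in 1755 and 2.5 in 1759. Calf 1759 had the largest change, and calf 1789 the smallest. Without the doubtful library of calf 1755, the d 2 mean was 0.24 ± 0.76 (SD, n = 5).

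**Figure D2:**
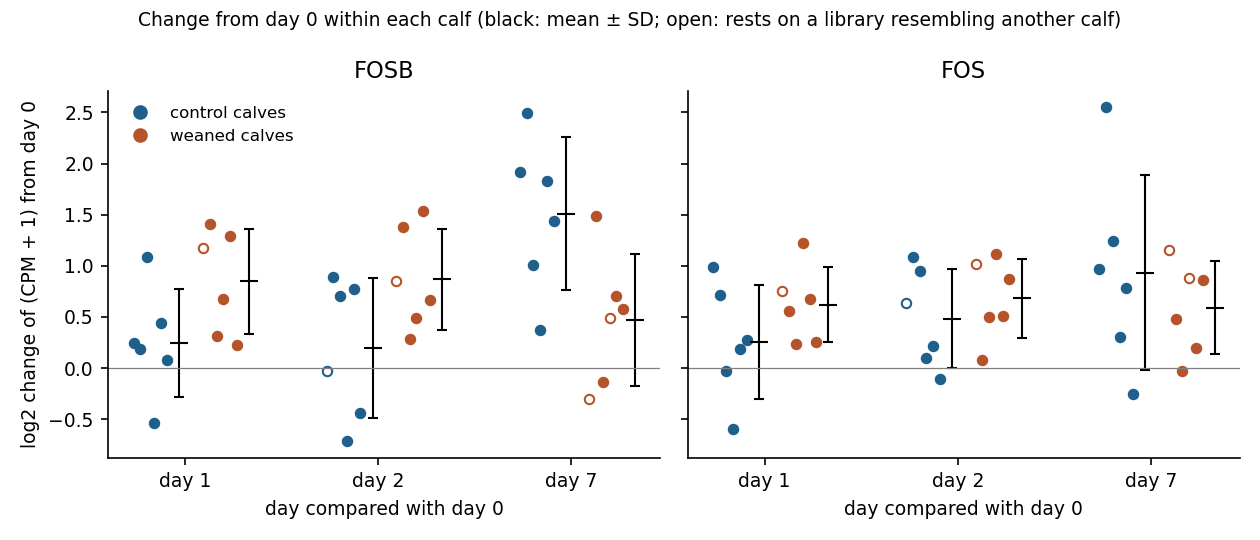
Log2 change of (CPM + 1) from d 0 within each calf (vertical axis) for FOSB (left) and FOS (right) on d 1, 2 and 7, with control calves in blue and weaned calves in brown. Points are calves, open points rest on 1 of the 4 doubtful libraries and black marks are the mean ± SD of 6. For FOSB all 6 weaned calves lie above 0 on d 1 and 2 and all 6 control calves on d 7, where their mean is 1.51.

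Fitted with edgeR over the 12 libraries of each comparison, the log2 change of FOSB from d 0 was 1.70 (SE 0.28) in control calves on d 7, which is a 3.25-fold higher level. With calf as a block it was 1.58 (SE 0.22), and without calf 1759 it was 1.42 (SE 0.23). In weaned calves the fitted change was 0.85 (SE 0.19) on d 1, 0.89 (SE 0.20) on d 2 and 0.51 (SE 0.23) on d 7. Without the doubtful libraries these values were 0.83, 0.87 and 0.63. In control calves it was 0.30 (SE 0.23) on d 1 and 0.30 (SE 0.27) on d 2, and the d 2 value was 0.42 (SE 0.27) without the doubtful library. The control d 1 value was 0.08 (SE 0.14) over the 5 calves whose d 0 and d 1 libraries shared a flowcell, and 0.08 (SE 0.23) without calf 1763. Over the 4 calves whose d 0 and d 2 libraries shared a flowcell, the control d 2 value turned to -0.11 (SE 0.25), so that no direction can be given for that day. The corresponding value in the 2 control calves whose d 0 and d 7 libraries shared one was 1.67 (SE 0.21) on d 7.

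Between treatments, FOSB was 0.68 (SE 0.24) higher on the log2 scale in weaned than in control calves on d 1 and 0.72 (SE 0.29) higher on d 2. On d 7 the difference was -1.04 (SE 0.31), which places the weaned calves at 0.488 times the control level. The ranges of the treatments overlapped on every day. On d 7, 2 of 6 weaned calves lay below all control calves, and none lay above them all. Without calf 1759 the d 7 difference was -0.68 (SE 0.26), and without the doubtful d 7 libraries it was -0.90 (SE 0.32). With flowcell as a covariate the differences were 0.74 (SE 0.29), 0.83 (SE 0.34) and -1.19 (SE 0.30) on the 3 days. On d 0 the difference was 0.14 (SE 0.19), and -0.06 (SE 0.15) with the flowcell term. The change from d 0 to d 7 was 1.09 (SE 0.36) smaller in weaned than in control calves with calf as a block, that is -1.09 on the log2 scale, and -0.91 (SE 0.36) without calves 1758 and 1770.

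A few measures of the libraries moved along with FOSB in control calves on d 7. The first principal component of the 10258 genes with a mean of at least 5 CPM held 51.1% of the variance, and the control d 7 libraries lay at 0.31 to 1.51 SD on it, all on the same side, against -1.77 to 0.56 in control calves on d 0. Across the 48 libraries, which share calves and days, its correlation with the log2 level of FOSB was 0.28. With this component as a covariate the fitted change in control calves on d 7 was 1.29 (SE 0.43), and the d 7 difference between treatments was -0.68 (SE 0.35). The share of counts taken by the 100 most abundant genes was 8.58% to 10.9% in control d 7 libraries and 8.45% to 9.19% on d 0, and its correlation with FOSB over the 48 libraries was 0.42. In weaned calves on d 1, where FOSB was higher in 6 of 6, both measures lay the other way: the median on the component was -0.42 SD against 0.31 on d 0, and the median share 8.52% against 8.90%. The part of that share in the FOSB values was not tested.

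Among other genes, a gene was called when edgeR's quasi-likelihood F-test gave a Benjamini-Hochberg adjusted p under 0.05 over all genes tested and the change was at least 2-fold. In control calves, d 7 against d 0, 516 of 13829 genes (3.73%) were called, 63 higher (0.456%) and 453 lower (3.28%), and 5547 had an unadjusted p under 0.05. The calls depended on single calves, as none was left without calf 1755, 1759 or 1763, nor with the first principal component as a covariate. In each of the other 9 comparisons of 2 groups 0 genes (0%) were called by this test, while 107 to 3552 genes had an unadjusted p under 0.05. In these 9 the DESeq2 Wald test called 0 to 28 genes and edgeR's exact test with a common dispersion 0 to 865. With calf as a block 2 genes were called in weaned calves, d 1 against d 0. The interaction of treatment and day had 0 calls (0%) and 5268 of 14713 genes with an unadjusted p under 0.05, and the other tools were not run on it.

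The position of FOSB among all genes describes the size of its change. Of the 10377 genes with an average of at least 5 CPM in control calves, d 7 against d 0, 6 had a higher fitted change than FOSB, and 90% of these genes lay between -0.97 and 0.55. In weaned calves, 81 of 10488 such genes had a higher change on d 1, 71 of 10459 on d 2 and 513 of 10465 on d 7. For weaned against control calves on d 7, 10357 of 10413 had a higher value, which leaves FOSB near the lower end. In control calves on d 1 and 2, 289 of 10473 and 529 of 10388 genes exceeded it. FOSB was therefore close to the top of the distribution in control calves on d 7 and less extreme in the weaned calves.

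**Figure D3:**
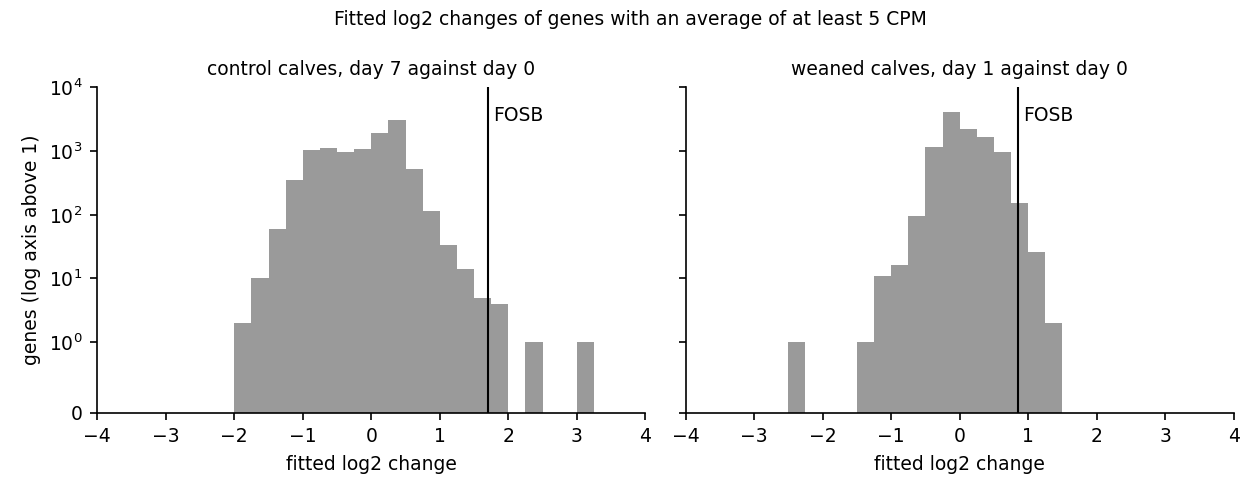
Number of genes (vertical axis, logarithmic above 1) by fitted log2 change (horizontal axis, bins of 0.25) for genes with an average of at least 5 CPM, in control calves on d 7 against d 0 (left) and weaned calves on d 1 against d 0 (right). The black line marks FOSB, at 1.70 with 6 genes above it on the left and at 0.85 with 81 genes above it on the right.

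Of the 14 AP-1 genes looked for, FOSB and FOS could be identified in the table, which gives identifiers without symbols. Symbols could be given only to genes that the study had listed as differentially expressed in these samples. The calls of FOS and of the other named genes are therefore not independent of that choice. FOS (ENSBTAG00000004322), the founding member of the family and the usual partner of JUN, was not used in choosing FOSB and was tested. In control calves it had 60.4 to 214.1 CPM on d 0 with a median of 100.1, and 97.6 to 648.3 CPM on d 7 with a median of 190.4. The groups overlapped, and calf 1759 was again the highest on d 7. The fitted log2 change was 1.12 (SE 0.37), and the gene was called with an edgeR adjusted p of 0.0455. This call was not firm. It was kept in 5 of the 14 alternatives, and without calf 1759 the log2 change was 0.57 with an edgeR adjusted p of 0.204. With calf as a block the change was 0.96 with an edgeR adjusted p of 0.00398, under the 2-fold criterion, and in the 2 control calves whose libraries shared a flowcell it was 0.26. Over the 14 alternatives the adjusted p ran from 2.22e-05 to 1.00.

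Within weaned calves FOS had positive fitted changes without a call. They were 0.60 (SE 0.26) on d 1, 0.68 (SE 0.27) on d 2 and 0.53 (SE 0.23) on d 7, with edgeR adjusted p-values of 0.423, 0.944 and 0.920. FOS exceeded the baseline in all 6 weaned calves on both d 1 and d 2, and in 5 of 6 a week after weaning. Without the doubtful libraries the fitted changes were 0.49, 0.57 and 0.42, with edgeR adjusted p-values of 0.621, 0.998 and 1.00. The mean d 7 change within calves was then 0.38 ± 0.38 (SD, n = 4), against 0.59 ± 0.45 over all 6, and was positive in 3 of 4. In control calves on d 1 and 2 the fitted changes were 0.32 and 0.45, with edgeR adjusted p-values of 0.999 and 0.625, and the d 2 value was 0.56 without the doubtful library. Between treatments on d 7 the difference was -0.56 (SE 0.34, edgeR adjusted p = 0.279), and it was -0.01 without calf 1759. The interaction of treatment and day was -0.35 (SE 0.34, edgeR adjusted p = 0.442), so a different d 7 response of FOS in the treatments was not shown.

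FOSB and FOS moved the same way from d 0 in 31 of the 36 later libraries, and both were higher in 28. Pearson's r of the log2 changes was 0.45 over these 36, which share 12 baselines. It was 0.26 without calf 1759 on d 7 and 0.53 over the 31 libraries left without the doubtful ones. The changes were not equal in size. In control calves on d 7 FOSB exceeded FOS by a mean of 0.58 ± 0.77 on the log2 scale (SD, n = 6), and in 4 of 6 calves, whereas in weaned calves on d 7 the mean difference was -0.12 ± 0.84 (SD, n = 6). The sign of the latter rested on the doubtful libraries, since in the 4 weaned calves left without them the mean change on d 7 was 0.66 for FOSB and 0.38 for FOS.

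**Figure D4:**
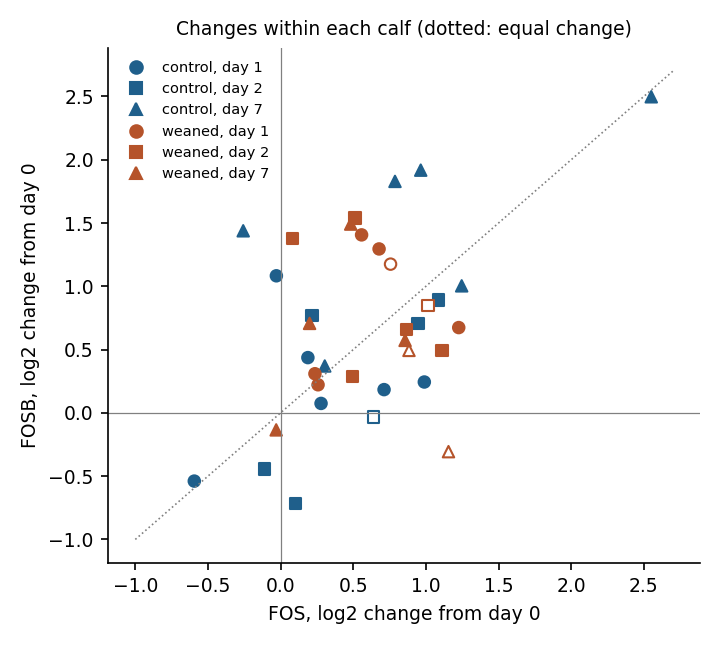
Log2 change from d 0 of FOSB (vertical axis) against that of FOS (horizontal axis) in the 36 libraries of d 1, 2 and 7, by treatment (colour) and day (symbol), with open symbols for changes that rest on the 4 doubtful libraries and a dotted line of equal change. In 28 libraries both genes are higher than on d 0. The point at the upper right is control calf 1759 on d 7.

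None of the 34 other immediate early genes, the 25 upstream regulators or the 10 glucocorticoid-responsive genes looked for could be identified. None was among the genes named through the study's own lists, so their course is not analysed here. Of 11 genes considered here that the study placed in pathways together with FOSB, 10 were identified and tested. The study chose them on these samples, so that their direction is not independent evidence, and FOS is among them. In control calves, d 7 against d 0, 1 of the 10 rose (FOS) and 3 fell (MAP3K7, TGFBR1 and XPO1), beside 3.73% called among all genes. The median log2 change of the 10 was -0.92, against 0.05 over all genes tested. In the other 9 comparisons of 2 groups 0 of the 10 were called, and their median was 0.53 in weaned calves on d 1 and 0.36 on d 7.

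TGFBR1, the type I receptor of TGF-beta, fell by 1.23 on the log2 scale (SE 0.27, edgeR adjusted p = 0.0222), and it was lower in 6 of 6 control calves. XPO1, which exports proteins from the nucleus, fell by 1.14 (SE 0.22, edgeR adjusted p = 0.0222) and was also lower in 6 of 6. MAP3K7, the kinase TAK1 that signals towards AP-1 and NF-kappaB, fell by 1.03 (SE 0.26, edgeR adjusted p = 0.0249), again in 6 of 6. The counts of 6 of 6 come from the same libraries as the calls and are not separate support. The share of all genes lower in 6 of 6 control calves was not computed. The other 6 did not pass both criteria. CDC27 and ANAPC4, subunits of the anaphase-promoting complex, had changes of -0.92 each, and CDK1, the kinase of mitotic entry, -1.36, with an edgeR adjusted p of 0.0615. With calf as a block CDK1 was called, at -1.52 (edgeR adjusted p = 0.0127). CD80, DAB2 and HNF4A lay between -0.55 and 0.67. On d 7 the control calves thus had pathway companions of FOSB in both directions. On d 1 the weaned calves had positive values for 9 of the 10, none of them called.

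**Figure D5:**
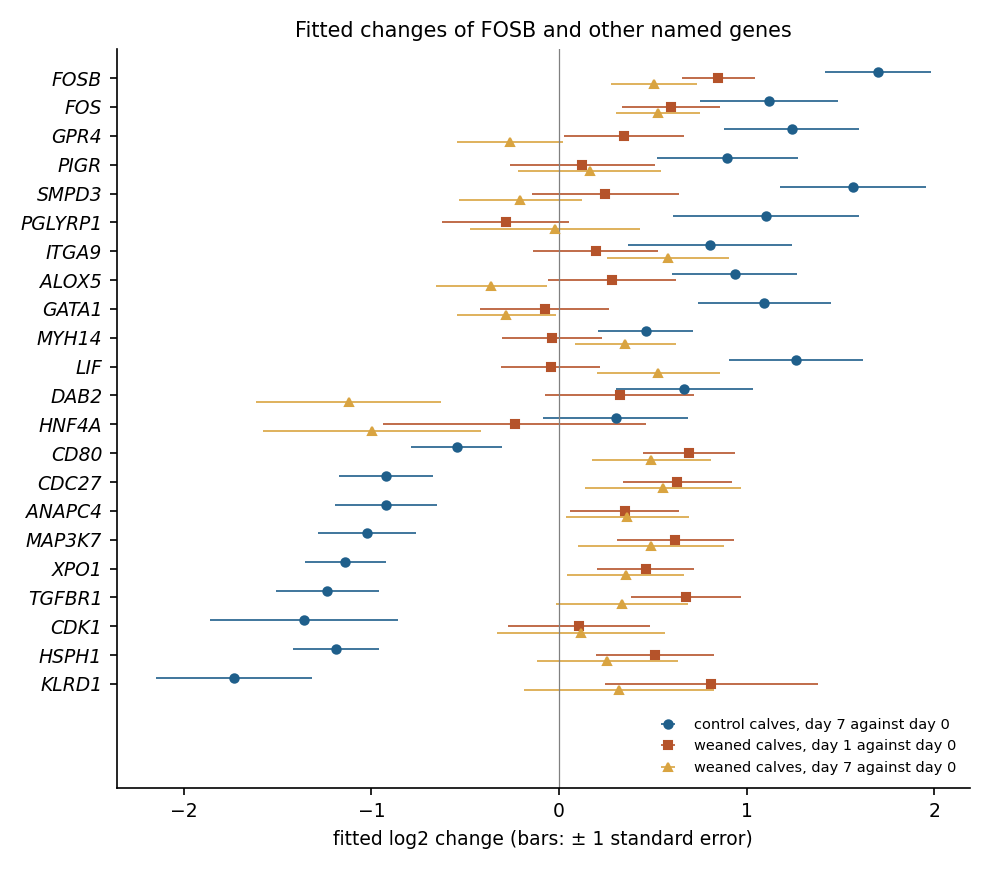
Fitted log2 change (horizontal axis, bars ± 1 SE) of FOSB and 21 other named genes in control calves on d 7 (circles), weaned calves on d 1 (squares) and weaned calves on d 7 (triangles), each against d 0 and over 6 calves per group. FOSB lies at 1.70, 0.85 and 0.51, and KLRD1, the lowest in control calves on d 7, at -1.73.

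Some markers of other cells and of stress moved in the same comparison as FOSB. Of 6 markers of NK cells, KLRK1 and KLRD1 were identified. KLRD1, a receptor of NK and cytotoxic T cells, fell by 1.73 on the log2 scale in control calves on d 7 (SE 0.42, edgeR adjusted p = 0.0226), and KLRK1 was at -0.86 (edgeR adjusted p = 0.0845). The summed level of both genes was 5.81 to 14.9 CPM in control calves on d 7 and 7.04 to 37.0 on d 0. With edgeR's filterByExpr filter for low counts, only 1 of these 2 markers was tested, and 0 were called. Of 8 heat shock genes 2 were identified, and HSPH1, a chaperone of the HSP110 family, fell by 1.19 (SE 0.23, edgeR adjusted p = 0.0222) in 6 of 6 calves, while HSPA6 was at -0.03. Here too the count of calves is not separate support for the call. Of 7 erythroid markers HBB, ALAS2 and SLC4A1 were identified, and their summed level was 5.97 to 48.6 CPM in control calves on d 7 and 4.71 to 13.0 on d 0, with HBB at 1.20 (edgeR adjusted p = 0.0555). PPBP, 1 of 7 platelet markers, was at 0.16 (edgeR adjusted p = 0.849) and at no more than 29.0 CPM in any library. No marker of neutrophils, monocytes, T cells or B cells was among the genes named through the study's lists of changed genes. The markers given here were all on those lists, so their calls are not an unselected sample. In the study's blood counts, weaned calves had a higher neutrophil and a lower lymphocyte percentage than control calves on d 1. The part of any of these cell types in the FOSB values was not tested.

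Eosinophils could be followed by 2 of 7 markers, IL5RA and ALOX15, of which ALOX15 was the more abundant. Their summed level was 159.0 to 510.1 CPM in control calves on d 7 and 112.2 to 376.2 on d 0, and it mainly reflects ALOX15. The 2 markers moved in opposite directions, with a negative fitted change for IL5RA and a positive one for ALOX15. Neither was called in control calves on d 7, with edgeR adjusted p-values of 0.748 and 0.103. The library labelled control calf 1755 on d 2 stood apart, since ALOX15 had 2 counts there, or 0.552 CPM, whereas the other 47 libraries had at least 74.3 CPM and the median was 187 CPM. This is also 1 of the 4 libraries that resembled another calf. Its FOSB level was 17.4 CPM, within the range of the other control calves on d 2.

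To find genes with a like course, log2(CPM + 1) was centred on each calf and correlated with FOSB over the 48 libraries, for 10257 genes with a mean of at least 5 CPM. The values of one gene share their libraries, calves and depth, and the measure uses the same FOSB values, so the coefficients are a description. The median r over all genes was 0.08, and 3.06% of the genes had 0.5 or more. None of the 10 highest had a symbol, and ENSBTAG00000020355 and ENSBTAG00000023926 led them with r of 0.79 and 0.73. ENSBTAG00000020355 was at 57.1 ± 8.94 CPM in control calves on d 0 and at 76.2 ± 14.5 on d 7 (SD, n = 6 each). Its log2 change of 0.43 was much smaller than that of FOSB, although it was higher in 6 of 6 calves.

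FOS ranked 25th among all genes and was the named gene most like FOSB, with r of 0.61. Without the 2 libraries with the most extreme FOSB levels r was 0.52 for both FOS and GPR4, with GPR4 marginally ahead. The next were GPR4, a proton-sensing receptor, at 0.58, PIGR, the receptor that carries polymeric immunoglobulins across epithelia, at 0.52, and SMPD3, a neutral sphingomyelinase, at 0.50. PGLYRP1, a peptidoglycan-binding protein of granulocytes, had 0.47, ITGA9, an integrin subunit, 0.47, ALOX5, the enzyme that starts leukotriene synthesis, 0.46, and GATA1, a transcription factor of erythroid cells, megakaryocytes and eosinophils, 0.46. MYH14 and the cytokine LIF closed the 10 with 0.39 each. Most of these coefficients depended on centring each gene on its calf: without it r stayed at 0.61 for FOS but was 0.32 for GPR4, 0.18 for PIGR, 0.31 for SMPD3, 0.24 for PGLYRP1 and 0.20 for ITGA9, and 0.20 to 0.29 for the other 4. These 10 came from the 274 of the 10257 genes that had a symbol, so that many genes more like FOSB are not named. At the other end, named after their values were seen, stood CDC42BPA with r of -0.56, the RNA sensor DDX58 with -0.56, CDK1 with -0.54, the telomere protein POT1 with -0.54 and the laminin subunit LAMA4 with -0.53.

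Some of these named genes also changed in control calves on d 7. FOS, GPR4, SMPD3, GATA1 and LIF rose, with edgeR adjusted p-values of 0.0455, 0.0319, 0.0243, 0.0427 and 0.0300, and the other 5 of the 10 were not called, beside 0.456% called higher among all genes. The likeness was computed over libraries that include this comparison, and named genes were limited to those the study had listed as changed. The 5 calls therefore add no independent support. SMPD3 had the largest change of the 10, 1.57 (SE 0.39), and went from 46.5 ± 16.1 to 135 ± 121 CPM (SD, n = 6 each), with 1 control calf at 375 CPM. GPR4 changed by 1.24 (SE 0.36) and 0.83 without calf 1802. None of the 5 was called without calf 1755, 1759 or 1763, and their changes then lay between 0.57 and 1.78. With calf as a block GATA1, at 0.90, and FOS were no longer called, and PGLYRP1 was, at 1.43 (edgeR adjusted p = 0.00396). In weaned calves on d 1 the 10 genes had fitted changes of -0.28 to 0.60, none called, of which FOS had the highest. FOSB itself had 0.85 there, above each of the 10.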

How the data were processed

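Total leukocyte mRNA of 12 calves was sequenced as single 36 bp reads in 48 libraries. The deposited table holds the number of reads per Ensembl gene as raw counts. The authors had checked reads with FastQC 0.9.1, aligned them with Bowtie 0.12.7 to Btau4.0 without mismatches, dropped reads with several alignments, kept 1 read per position, which lowers the values of abundant genes, and counted with HTSeq 0.4.6p2. Annotation came from Ensembl.

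Counts were fitted with edgeR 4.0.16 (R 4.3.3, limma 3.58.1), with TMM normalisation, after genes with fewer than 10 counts over the compared libraries had been left out. The quasi-likelihood F-test was used, with calls at an adjusted p under 0.05 and at least 2-fold. The interaction fit had calf as a block. Depth was 1662995 to 4256011 counts per library. Changes within calves used log2(CPM + 1). Symbols came from human orthologs in the study's supplementary tables, which name 644 genes. These were genes that the study had listed as differentially expressed in its own comparisons of these samples. The RefSeq table held no Ensembl identifiers.

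FOSB, the lists and the tests were chosen with earlier results of these data known. Named were FOSB, identified AP-1 genes, up to 2 genes or any called gene of each other list, and the 10 genes most like FOSB, of which those without a symbol are given as 2 identifiers with the 10 most similar named genes in addition. The pathway companions of FOSB, of which 1 is not reported here and was left out of their counts, and the least similar genes were added after the data were seen.

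Alternatives were RLE size factors, DESeq2 1.42.0, edgeR's exact test, other filters, calf as a block, flowcell, other pseudocounts, and leaving out calves. The first principal component and leaving out the 4 doubtful libraries were added after the data were seen. Libraries of the same number are labelled as coming from the same calf. Their deviations from the group means correlated by 0.21 to 0.50 on average with the d 0 library of that calf. Single values ran from -0.57 to 0.89, both in control calves on d 1. The same measure between different calves was not computed. On data simulated from control calves, d 7 against d 0, with 13643 genes, the test called 99% of 200 genes changed 4-fold and made 6 false calls. The changed genes were drawn from those with at least 200 counts in total, so recovery among genes with fewer counts was not tested. Recovery of changes nearer to the 2-fold criterion was not tested. How these figures hold with a calf left out, or with the first principal component as a covariate, was not tested either. Nor were they tested with genes that vary together, as on that component. They therefore do not give the recovery or the false calls of the test on the real libraries. Levels were computed with pandas 2.3.3 and numpy 2.4.6 under Python 3.11.15, and plots drawn with matplotlib 3.10.9.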

Additional observations from a re-analysis of the deposited data

Results flagged for a closer look

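In 5 of 36 sets of 6 libraries (levels and changes of FOSB and FOS, and total counts), 1 library lay farther from the nearest other than the 95% limit of Dixon's test allows, and chance gives about 1 in 20. These were the FOSB level of control calf 1759 on d 7 at 168.5 CPM and that of weaned calf 1773 on d 2 at 77.7 CPM. For FOS they were control calf 1759 on d 7 at 648.3 CPM and control calf 1803 on d 0 at 214.1 CPM. The total of control calf 1759 on d 2 was low, at 1662995 counts. Calf 1759 on d 7 was the highest of its group for both genes. As log2 changes from d 0, no set had a library beyond the limit.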

How the results depend on the processing

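All 185 alternative fits of the FOSB change moved it by less than the spread between calves, as did all 30 alternatives of the mean change within calves. This limit is wide, since leaving out 1 calf can move a mean by only part of that spread. Leaving out the doubtful libraries removed none from control calves on d 1 and 7, so those means could not move. Staying within the limit therefore does not show how stable the change is. The sign changed in 3 fits, 2 for control calves on d 2 and 1 between treatments on d 0. Leaving out 1 calf gave FOSB changes of 0.08 to 0.44 in control calves on d 1 (lowest without 1763), 1.42 to 1.90 on d 7, 0.74 to 1.00 in weaned calves on d 1, 0.71 to 1.04 on d 2 and 0.30 to 0.67 on d 7, and treatment differences of -1.18 to -0.68 on d 7. The counts of called genes were less stable. In control calves, d 7 against d 0, 516 calls became 0 with the first principal component and 0 in the 2 calves whose libraries shared a flowcell, and 0 to 1086 when 1 calf was left out (0 without 1755, 1759 or 1763, 790 without 1802 and 1086 without 1803). The pathway companions of FOSB went from 4 calls to 0 in both of these settings and to 0 to 7 when 1 calf was left out. Weaned against control calves on d 7 had 0 calls, but 28 by DESeq2, 1 with the first principal component and 0 to 1137 when 1 calf was left out (1137 without weaned calf 1809). In weaned calves DESeq2 called 1 gene on d 1 and 1 on d 7. With a common dispersion, edgeR's exact test called 68, 40, 75 and 865 genes between treatments on d 0, 1, 2 and 7, 18 in control calves on d 2, and 64, 62 and 38 in weaned calves on d 1, 2 and 7. With calf as replicate block, the pairing by animal gave 2 calls instead of 0 in weaned calves on d 1 and 536 instead of 516 in control calves on d 7, and no other count of calls changed. The FOS call in control calves on d 7 was lost in 9 of 14 alternatives. Without centring on calves, the likeness to FOSB of GPR4, PIGR and ITGA9 moved most, to r of 0.32, 0.18 and 0.20. The cause of these changes was not tested. A total of 54 to 281 FOSB counts per library limits the precision of a single library.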
